A study of Mus musculus with 2 samples.

Results

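The elastic fiber and microfibril genes described here are Eln, Fbn1, Fbn2, Fbln1, Fbln2, Fbln5, Mfap2, Mfap4, Lox and Loxl1, which are 10 of the 31053 genes counted. They were chosen by name, and their unique molecular identifiers (UMIs) were counted in every barcode with at least 2000 UMIs of which under 10% were mitochondrial. This rule kept 8253 cells of the PDGFRB +/+ (WT) library and 8165 cells of the PDGFRB -/- (KO) library. Both libraries were made from cells of the aorta-gonads-mesonephros (AGM) region, the tissue around the dorsal aorta in which the first hematopoietic stem cells arise, of mouse embryos at embryonic day 11. The KO line lacks functional PDGFRβ, the receptor for platelet-derived growth factor B, in every cell and was kept as heterozygotes on the C57BL/6J background. How many embryos each library pooled is not given in the sources used here. The study asked which perivascular cells surround the embryonic aorta and what the loss of this receptor does to them. Each genotype is 1 library, so no difference below has a replicate check, and every interval is a 95% interval that covers counting error only. Genotype, embryo, dissection and library cannot be told apart in this design.

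Elastic fibers give the wall of large arteries its recoil. Tropoelastin, the product of Eln, is laid down on a scaffold of microfibrils made of the fibrillins Fbn1 and Fbn2, to which the small glycoproteins encoded by Mfap2 and Mfap4 attach. Fibulins link tropoelastin to the scaffold and to cells, and Fbln5 also brings in the crosslinking enzymes. Lox and Loxl1 are lysyl oxidases that crosslink tropoelastin into insoluble elastin. In the embryonic aorta this matrix is made mainly by vascular smooth muscle cells, while microfibrils without elastin occur in most connective tissues.

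The kept cells held 150175081 UMIs in WT and 142222182 in KO, with medians of 13321 and 12391 UMIs per cell. Pdgfrb had 43.1 UMIs per 1000000 UMIs (CPM) in WT and 7.09 in KO. UMIs count the 3′ end of a transcript, so they do not show which part of the gene is missing. The libraries also differed in the sex of the embryos, with Xist at 793 and 0.415 CPM and 4 Y-linked genes together at 0.0266 and 163 CPM in WT and KO. Barx1, a gene of gastric and splenic mesenchyme, had 35.1 CPM in WT and 0.724 in KO. The libraries shared 20 cell barcodes, and leaving these out changed neither the counts for all stromal cells nor those for PC/VSMC-like cells given below.

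Cells were sorted into classes by marker genes that include none of the 10 genes. Of all cells, 6479 (78.5%) in WT and 6866 (84.1%) in KO were stromal, meaning that they passed none of the blood, endothelial, neural, myogenic, epithelial or coelomic gates. Among them, 169 WT cells (2.05%, interval 1.75 to 2.38) and 108 KO cells (1.32%, 1.09 to 1.59) passed a pericyte list (Rgs5, Notch3, Heyl, Kcnj8, Abcc9, Ndufa4l2, Gja4 and Mcam) and are called PC/VSMC-like here, for pericyte and vascular smooth muscle cell. Of these cells, 42 in WT and 25 in KO did not pass a gate on smooth muscle contractile genes. Acta2, Tagln, Myh11 and Cnn1, which the pericyte list does not hold, were among the 10 leading genes of this class in both libraries. Rgs5 and Heyl were too, but they are in the gating list, so their place was favored by the gate. Cells positive for Wnt2, or for Barx1, Tlx1 or Nkx2-5, were set apart next, whether or not they carried smooth muscle contractile genes. Of the rest, 288 WT and 228 KO cells carried those contractile genes and are called contractile-like. Remaining stromal cells fell into sclerotome-like cells, Tcf21-positive cells, other mesenchyme, and cells that passed no list. The last group was led by the germ cell genes Dppa5a and Dppa3 at low depth and stays unnamed. The sets positive for Barx1, Tlx1 or Nkx2-5 (7 cells in KO), other blood cells and epithelial cells had under 50 cells in at least 1 library and were not compared.

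The 10 genes differed in how far they were concentrated in PC/VSMC-like cells, as the plot of levels by class shows. Eln, Fbn1, Fbln5, Mfap2 and Loxl1 had their highest level in PC/VSMC-like cells in both libraries. The other 5 genes had other leading classes or changed leading class between the libraries. A leading class did not by itself mean concentration. Mfap2 in PC/VSMC-like cells was only 1.52-fold (WT) and 1.61-fold (KO) above the rest of the stroma. Lox, among the other 5, was 2.97-fold and 4.24-fold above it. Levels are CPM of 3′ UMIs, which are not scaled by transcript length, so they are compared here between classes and libraries for 1 gene at a time.

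**Figure D1:**
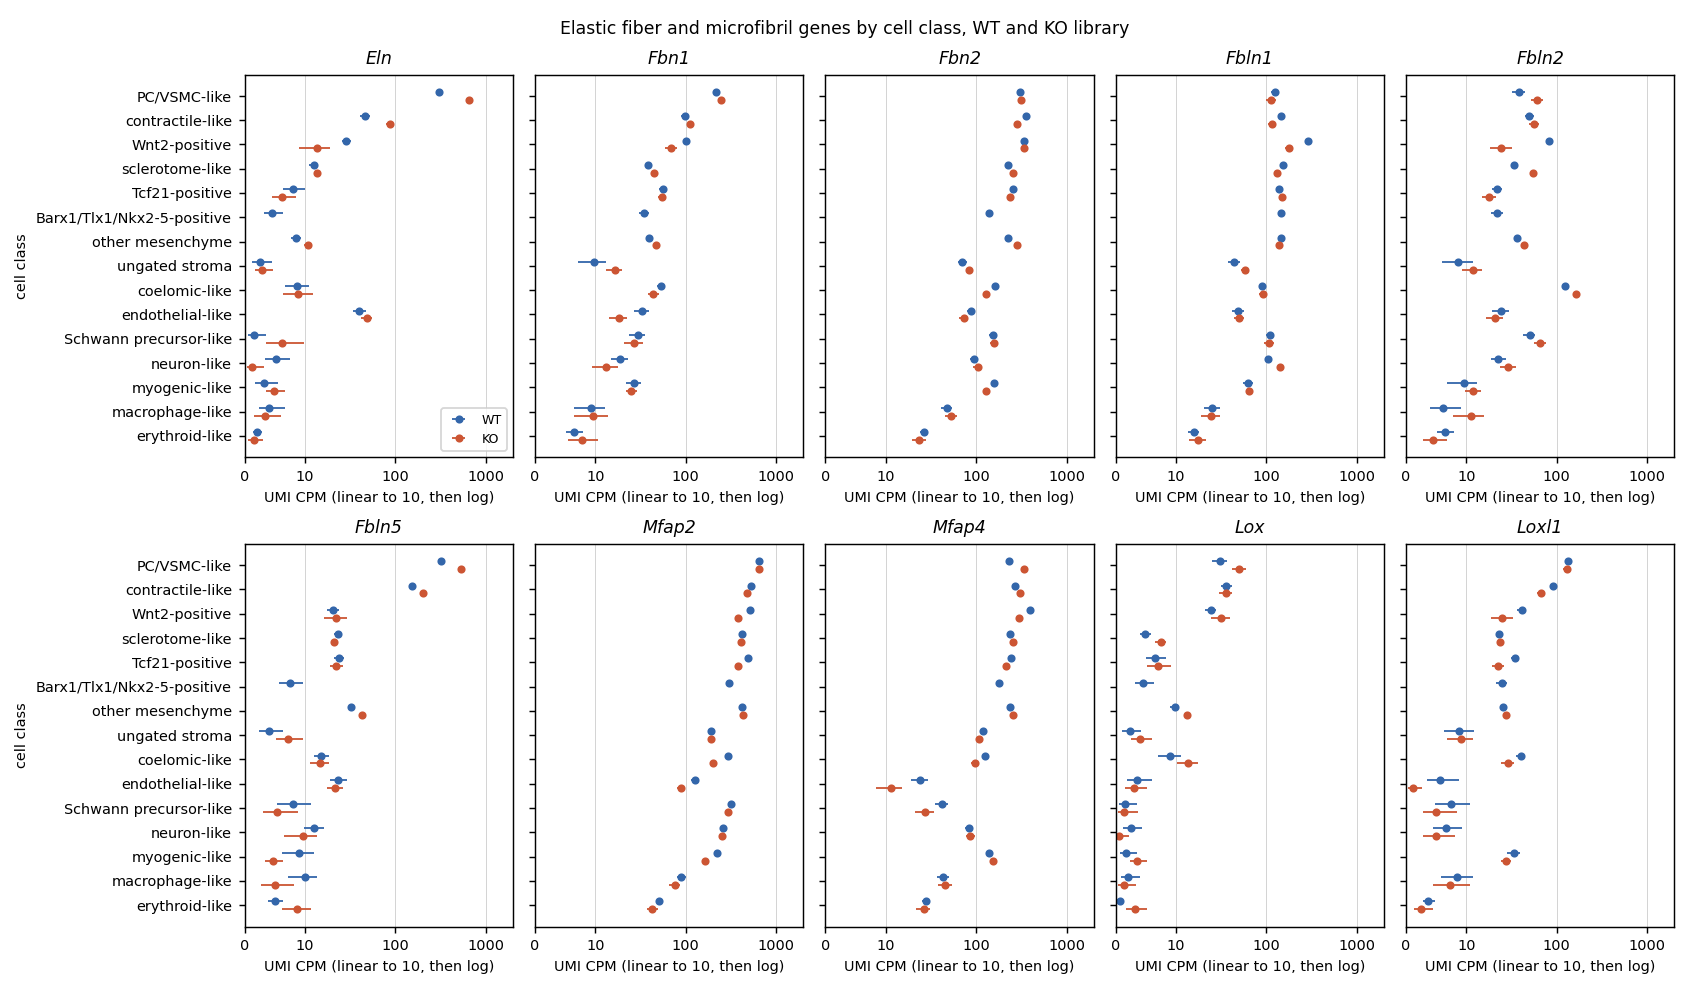
UMI CPM of each gene (horizontal axis, linear to 10 and logarithmic above) in each cell class with at least 50 cells (vertical axis), for the WT library (blue) and the KO library (orange-red), with exact Poisson 95% intervals. Eln stands at 299 CPM (WT) and 647 CPM (KO) in PC/VSMC-like cells and at 46.4 and 87.5 CPM in the next class, whereas Mfap2 and Fbn2 are high in most stromal classes.

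Eln, which encodes tropoelastin (chromosome 5, 134702593 to 134747323, minus strand of GRCm38), was the most restricted of the 10. In WT its level was 299 CPM (282 to 317) in PC/VSMC-like cells, 46.4 CPM (40.9 to 52.5) in contractile-like cells and 28.7 CPM in Wnt2-positive cells. The KO levels of these classes were 647 CPM (616 to 679), 87.5 CPM (79.2 to 96.4) and 13.4 CPM. PC/VSMC-like cells were 6.43-fold above the next class in WT and 7.4-fold in KO, so the order of the first and second class was the same in both libraries and beyond counting error. Against the rest of the stroma, the level in PC/VSMC-like cells was 23.8-fold higher in WT and 44.9-fold higher in KO. These cells held 41.7% of all Eln UMIs of the WT library and 47.1% of those of the KO library, from 2.05% and 1.32% of the cells.

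Endothelial-like cells came next, with WT at 39.9 CPM (33.7 to 47) and KO at 47.9 CPM (41.5 to 54.9), and in WT their interval overlapped that of contractile-like cells. These sums came from few cells, since Eln UMIs were in 20 of 111 WT and 9 of 100 KO endothelial-like cells, and the tenth of cells with most Eln held 94.6% and 100% of them. Whether those cells were doublets was not tested. Erythroid-like cells, which should make no tropoelastin, gave the background of free RNA, where Eln had 1.96 CPM (WT) and 1.48 CPM (KO). With every cell thinned to 2000 UMIs, 32% of WT and 48.1% of KO PC/VSMC-like cells had an Eln UMI, against 0.399% of WT erythroid-like cells and 0 of 220 in KO, which allows a share of up to 1.66% (exact binomial). Median depth before thinning was 16600 UMIs in WT PC/VSMC-like cells and 16752 UMIs in WT erythroid-like cells. Globin genes made up 56.4% (WT) and 64.4% (KO) of the UMIs of erythroid-like cells, against 0.0317% and 0.0127% in PC/VSMC-like cells. At equal depth, erythroid-like cells therefore held fewer UMIs of other genes. The effect of this on their background values was not tested.

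The fibrillins form the rod of the microfibril. Fbn1 (chromosome 2, 125300594 to 125507993, minus strand), the fibrillin of adult vessels, was highest in PC/VSMC-like cells, with a WT level of 214 CPM (200 to 229) and a KO level of 247 CPM (228 to 267). Behind it came Wnt2-positive cells in WT (101 CPM) and contractile-like cells in KO (111 CPM). Fbn2 (chromosome 18, 58008623 to 58210487, minus strand), the fibrillin of early development, was broader. It ranged in WT from 355 CPM (339 to 371) in contractile-like and 336 CPM (324 to 349) in Wnt2-positive cells, whose intervals overlap, to 226 CPM in sclerotome-like cells and 26.6 CPM in erythroid-like cells. In KO its first and second class, Wnt2-positive cells at 335 CPM (312 to 360) and PC/VSMC-like cells at 317 CPM (296 to 340), overlapped in their intervals, so their order was not resolved.

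The microfibril-associated glycoproteins behaved unlike each other. Mfap2 (chromosome 4, 141010418 to 141015984, plus strand), whose product binds the fibrillins, was spread over all stromal classes. Thinned to 2000 UMIs, 79.3% of WT and 67.6% of KO PC/VSMC-like cells had an Mfap2 UMI, against a background of 4.92% and 3.64% of erythroid-like cells. PC/VSMC-like cells led with 639 CPM (614 to 665, WT) and 649 CPM (619 to 681, KO), and contractile-like cells followed with 527 and 479 CPM. Mfap4 (chromosome 11, 61485431 to 61488900, plus strand) peaked in Wnt2-positive cells in WT, at 395 CPM (382 to 409). In KO it was at 338 CPM (316 to 361) in PC/VSMC-like and 307 CPM (291 to 323) in contractile-like cells, whose intervals overlap. Endothelial-like cells were its lowest class in both libraries, at 23.9 and 11.4 CPM, below the erythroid background of 27.6 and 26.2 CPM. The gene overlaps Mapk7, which lies on the opposite strand.

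The fibulins were led by 3 different classes. Fbln1 (chromosome 15, 85205949 to 85286535, plus strand), a fibulin of basement membranes and early mesenchyme, was led by Wnt2-positive cells, whose WT level was 291 CPM (280 to 302) and KO level 178 CPM (161 to 196). Fbln2 (chromosome 6, 91212455 to 91272540, plus strand), which takes part in both basement membranes and elastic fibers, was led by coelomic-like cells. Their WT level was 122 CPM (114 to 130) and KO level 165 CPM (153 to 177). This class was gated on genes of the body cavity lining and of the urogenital ridge together, so the level cannot be placed in the lining alone. Fbln5 (chromosome 12, 101746565 to 101819055, minus strand), needed for elastic fiber assembly in the postnatal vessel wall, was led by PC/VSMC-like cells, with 317 CPM (299 to 335) for WT and 527 CPM (499 to 556) for KO. Contractile-like cells came second for Fbln5, at 154 and 199 CPM. Against the rest of the stroma, PC/VSMC-like cells were 9.96-fold (WT) and 13.6-fold (KO) higher for Fbln5. For Fbln1 they were lower, at 0.796-fold and 0.866-fold of the level in the rest.

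Fbln5 and Fbln2 are the 2 genes that were at least 1.5-fold higher in KO PC/VSMC-like cells and that the RefSeq promoter table covers. The table matched 5 of the 10 genes, with 8 start sites. The 250 bases before 1 start site of each are given 5′ to 3′ on the strand of the gene, from GRCm38.p6, with capitals marking the letters TGGGAA on either strand, the core bound by RBPJ, the DNA-binding partner of Notch. The Fbln5 window is chr12:101819120-101819369 on the minus strand, and the Fbln2 window is chr6:91212514-91212763 on the plus strand.
Fbln5: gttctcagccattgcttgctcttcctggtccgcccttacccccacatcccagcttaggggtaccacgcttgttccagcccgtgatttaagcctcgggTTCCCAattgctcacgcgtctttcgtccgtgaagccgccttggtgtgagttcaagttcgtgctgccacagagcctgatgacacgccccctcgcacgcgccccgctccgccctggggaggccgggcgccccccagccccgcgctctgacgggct
Fbln2: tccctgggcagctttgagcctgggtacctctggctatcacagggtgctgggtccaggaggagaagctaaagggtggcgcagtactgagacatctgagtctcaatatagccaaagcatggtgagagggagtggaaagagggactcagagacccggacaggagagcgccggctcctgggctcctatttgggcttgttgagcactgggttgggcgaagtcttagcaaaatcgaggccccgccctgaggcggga
Of the 8 windows, 3 held TGGGAA (1 each of Fbn1, Fbln5 and Fbln1), and 21.6% of 32851 windows of the same length in the table did. None of the 8 held a CArG box, the element bound by serum response factor at contractile genes, or TATAAA, which 1.47% and 12.4% of all windows held. These letters are a description of the windows and not of binding.

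Of the crosslinking enzymes, Lox (chromosome 18, 52516067 to 52529867, minus strand) was led by contractile-like and PC/VSMC-like cells. In WT it stood at 36 CPM (31.1 to 41.3) in contractile-like and 30.5 CPM (25.2 to 36.5) in PC/VSMC-like cells, whose intervals overlap. In KO, PC/VSMC-like cells led with 49.9 CPM (41.6 to 59.3), and their interval lay just above that of contractile-like cells at 35.3 CPM (30.2 to 41.1). Loxl1 (chromosome 9, 58287738 to 58313186, minus strand), the oxidase tied most closely to elastic fibers, was highest in PC/VSMC-like cells in both libraries, at 133 CPM (122 to 145) and 130 CPM (116 to 144). Contractile-like cells followed at 91.4 CPM (WT) and 67.3 CPM (KO).

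Seen per cell, PC/VSMC-like cells carried more of the 10 genes than any other stromal population named above. At 2000 UMIs per cell, a mean of 3.09 genes was detected in WT and 3.59 in KO PC/VSMC-like cells, against 1.62 and 1.68 over all stromal cells and 0.121 and 0.1 in erythroid-like cells.

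The first comparison follows the study's split of WT stromal cells by UMIs of Pdgfrb and of Cspg4, which encodes NG2. It gave 414 double-positive (DP), 2148 Pdgfrb-only (PDGFRβ-S), 251 Cspg4-only (NG2-S) and 3666 double-negative (DN) cells. DP cells had the highest level of 8 of the 10 genes, namely Eln, Fbn1, Fbn2, Fbln2, Fbln5, Mfap2, Lox and Loxl1. Of the 12805 genes with at least 100 UMIs in WT stromal cells, 40.4% were highest in DP cells, and DN, NG2-S and PDGFRβ-S cells led 17.7%, 23.6% and 18.4%. With PC/VSMC-like cells left out of the gates, DP cells were highest for 9 of the 10 genes and for 42.8% of all genes. The DP gate then still held 52 contractile-like cells. In the gates with all stromal cells, Mfap4 was highest in PDGFRβ-S cells and Fbln1 in NG2-S cells, and no gene was highest in DN cells. Without PC/VSMC-like cells, Mfap4 was at 260 CPM in DP and 255 CPM in PDGFRβ-S cells. A cell enters the DP gate only when both transcripts are seen, and DP cells were also deeper, with a median of 24612 UMIs against 16447.5, 14141 and 9295.5 in the other gates.

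**Figure D2:**
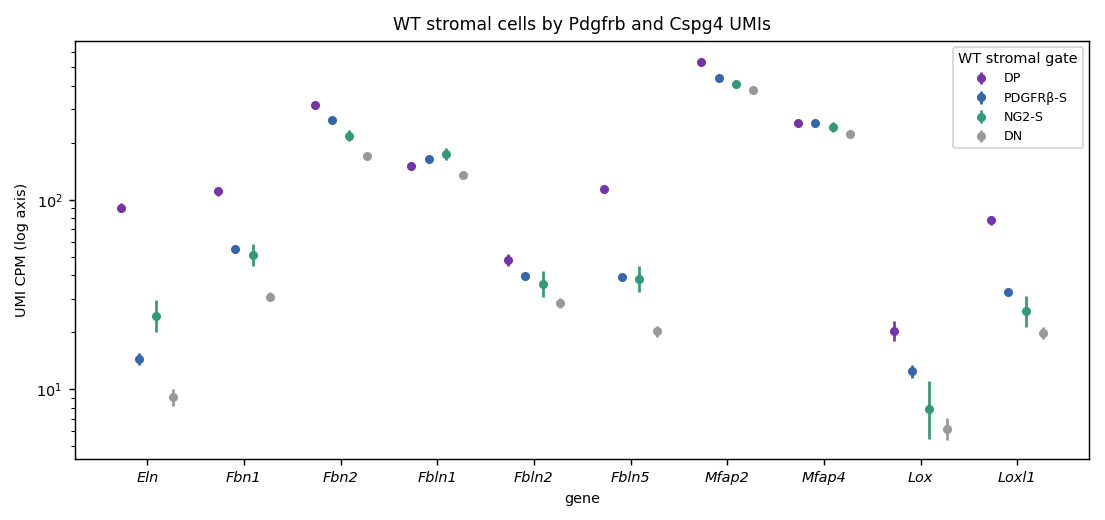
UMI CPM (logarithmic vertical axis) of each gene (horizontal axis) in the 4 gates of WT stromal cells, with exact Poisson 95% intervals. DP cells stand highest for Eln at 90.9 CPM, Fbln5 at 114 CPM and Loxl1 at 77.8 CPM, while the gates lie close together for Mfap4 and Fbln1.

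Eln showed the widest spread across the gates. DP cells had 90.9 CPM (86 to 96), NG2-S cells 24.5 CPM (20.1 to 29.7), PDGFRβ-S cells 14.4 CPM (13.4 to 15.5) and DN cells 9.05 CPM (8.13 to 10). DP cells included 105 of the 169 PC/VSMC-like cells (62.1%), and without PC/VSMC-like cells Eln in the DP gate was at 28.2 CPM, against 15.4, 12.2 and 8.22 CPM in NG2-S, PDGFRβ-S and DN cells. DP cells thus stayed highest and DN cells lowest when those cells were left out, while the distance between the gates was smaller. No interval was computed for these values, so the order of NG2-S and PDGFRβ-S cells was not resolved. The DP gate still held 52 contractile-like cells among its 414 cells. NG2-S, PDGFRβ-S and DN cells held 7 of 251, 102 of 2148 and 127 of 3666. The cells that passed no list were also unevenly spread, with 797 in the DN gate and 2, 4 and 29 in the DP, NG2-S and PDGFRβ-S gates. Eln was at 2.56 CPM in the WT cells of that group. The part of contractile-like cells and of cells that passed no list in the remaining distance was not tested.

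For Fbln5, DP cells had 114 CPM (109 to 120), PDGFRβ-S cells 39.3 CPM, NG2-S cells 38.2 CPM and DN cells 20.2 CPM. Without PC/VSMC-like cells the DP value was 59.3 CPM. Fbn1 was at 111 CPM in DP and 55.1, 51.2 and 30.8 CPM in PDGFRβ-S, NG2-S and DN cells, and Loxl1 at 77.8, 32.5, 25.9 and 19.9 CPM in the same order. By contrast Mfap4 lay between 222 and 255 CPM in the 4 gates, and its DP value of 253 CPM (244 to 261) overlapped the PDGFRβ-S value of 255 CPM (250 to 259). Fbln1 ranged from 135 CPM in DN to 175 CPM (162 to 187) in NG2-S cells, which overlapped PDGFRβ-S at 165 CPM (162 to 169).

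The second comparison set KO against WT over all stromal cells. None of the 10 genes differed by 1.5-fold or more in either direction, while 4.4% of the 13861 genes with at least 100 stromal UMIs were that much lower and 4.56% that much higher in KO. The median log2 of KO over WT was 0.10 for the 10 genes and 0.025 for all genes measured. Eln was farthest above WT, at 22.8 CPM in WT and 29.3 in KO (log2 0.36, 0.28 to 0.43), and Fbln1 farthest below, at 153 and 130 CPM (log2 -0.23, -0.26 to -0.20).

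The microfibril genes were nearly level between the libraries. Fbn1 was at 53.3 CPM in WT against 53.2 CPM in KO, Mfap2 at 429 and 410 CPM, and Mfap4 at 242 and 249 CPM. Fbn2 had 235 CPM in WT against 262 CPM in KO (log2 0.16). Among the fibulins and enzymes, Fbln2 was at 36.5 and 44.3 CPM, Fbln5 at 42.1 and 50.1 CPM, Lox at 11 and 12.7 CPM and Loxl1 at 33.5 and 29 CPM. All of these lie within 1.5-fold. The study listed Fbln1, Mfap4 and Loxl1 as significantly lower in KO, in the cluster that holds its PDGFRβ-positive WT cells. It used a rank test on the single cells of that cluster. That measure and set of cells differ from the summed CPM over all stromal cells used here.

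Sums over the stroma depended on which cells were in it. When the classes were weighted to the same share in both libraries, Eln moved to a log2 of 0.70 and Fbln5 to 0.39. When KO cells with a Pdgfrb UMI were left out, as the study did, while WT cells with Pdgfrb stayed in, Eln turned to a log2 of -0.13 and Fbln5 to -0.01. The markers of several classes also differed over the stroma. In KO, 4 of 7 sclerotome markers were at least 1.5-fold higher (sum 480 and 713 CPM in WT and KO). There, 3 of 7 contractile genes (sum 1379 and 793 CPM) and 4 of 8 pericyte genes (sum 112 and 81.9 CPM) were at least 1.5-fold lower. All 3 genes of the Wnt2 list (sum 247 and 108 CPM) and all 3 of the list of Barx1, Tlx1 and Nkx2-5 (52.9 and 0.906 CPM) were lower too, and Tcf21 was at 90.7 and 51.7 CPM. Over the same stroma Eln, Fbln5 and Lox were at a log2 of 0.36, 0.25 and 0.20, all within 1.5-fold. The part of the marker differences in these values was not tested. Without the classes gated on Wnt2 and on Barx1, Tlx1 or Nkx2-5, Fbln1 was at a log2 of -0.12 and Mfap4 at 0.09. Beyond these alternatives, their part in the stromal values was not tested. In sums over a class, fewer cells that express a gene and less RNA of it per cell cannot be told apart.

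The third comparison was made within PC/VSMC-like cells. Here 4 of the 10 genes were at least 1.5-fold higher in KO and none was lower, against 4.91% higher and 7.09% lower among the 10181 genes with at least 30 UMIs in this class. The 4 genes were Eln, Fbln5, Lox and Fbln2. The median log2 of KO over WT was 0.37 for the 10 genes and 0.009 for all genes measured.

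**Figure D3:**
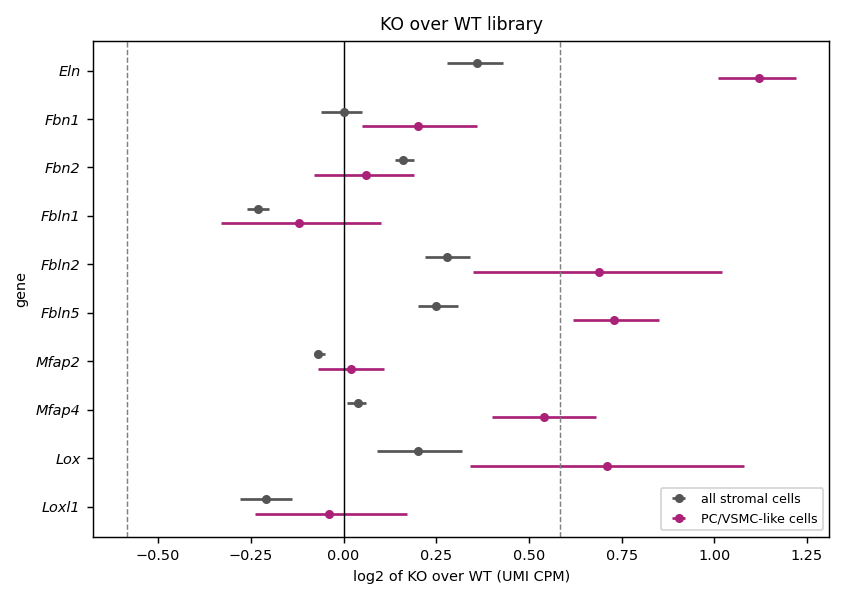
Log2 of KO over WT UMI CPM (horizontal axis) of each gene (vertical axis) in all stromal cells (grey) and in PC/VSMC-like cells (magenta), with exact conditional 95% intervals for counting error. Dashed lines mark 1.5-fold, which no grey point and 4 magenta points pass, with Eln farthest at 1.12.

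Eln was at 299 CPM in WT and 647 in KO (1146 and 1661 UMIs), a log2 of 1.12 (1.01 to 1.22), and 0.923% of the genes measured in this class had a larger value. Fbln5 was at 317 and 527 CPM, a log2 of 0.73 (0.62 to 0.85). Lox was at 30.5 and 49.9 CPM (117 and 128 UMIs), a log2 of 0.71 (0.34 to 1.08), and Fbln2 at 37.8 and 60.8 CPM (145 and 156 UMIs), a log2 of 0.69 (0.35 to 1.02). For Lox and Fbln2 the lower end of the interval lies under 1.5-fold, and for Fbln5 and Eln it does not.

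Mfap4 was at 233 and 338 CPM, a log2 of 0.54 (0.40 to 0.68), just under 1.5-fold. The fibrillins and Mfap2 were close between the libraries, with Fbn1 at 214 and 247 CPM, Fbn2 at 305 and 317 CPM and Mfap2 at 639 and 649 CPM. Loxl1 was at 133 and 130 CPM and Fbln1 at 123 and 113 CPM. Mfap4 passed 1.5-fold in 4 of 15 alternatives, for example at a log2 of 0.71 under stricter gates, so its place below the 4 genes depended on the cells taken.

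The size of the difference depended on the cells taken. With every cell thinned to 2000 UMIs, Eln was at a log2 of 0.61, Fbln5 at 0.45 and Lox at 0.19. Under stricter gates Eln was at 1.41, Lox at 1.64, Fbln5 at 0.43 and Fbln2 at 0.17, so that Eln, Lox and Mfap4 were past 1.5-fold.

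The same UMIs were also described over single cells, which is not a further check of the sums. Shares of cells with an Eln UMI were 63.3% (55.6 to 70.6) in WT and 77.8% (68.8 to 85.2) in KO. Thinned to 2000 UMIs they were 32% (25 to 39.6) and 48.1% (38.4 to 58). Both pairs of intervals overlap, so the shares do not resolve a difference. Eln UMIs occurred in 107 of the 169 cells of WT and 84 of the 108 cells of KO, and the median cell held 0.65 Eln UMIs per 10000 in WT and 3.4 in KO. The tenth of cells with most Eln held 58.8% of its UMIs in WT and 50.3% in KO. For Fbln5 the median cell held 2.73 UMIs per 10000 in WT and 4.96 in KO, with the gene found in 132 and 95 cells. For Fbn1 the medians were 1.62 and 1.95. Cells of 1 library are not replicates of a genotype, so these values carry no test.

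**Figure D4:**
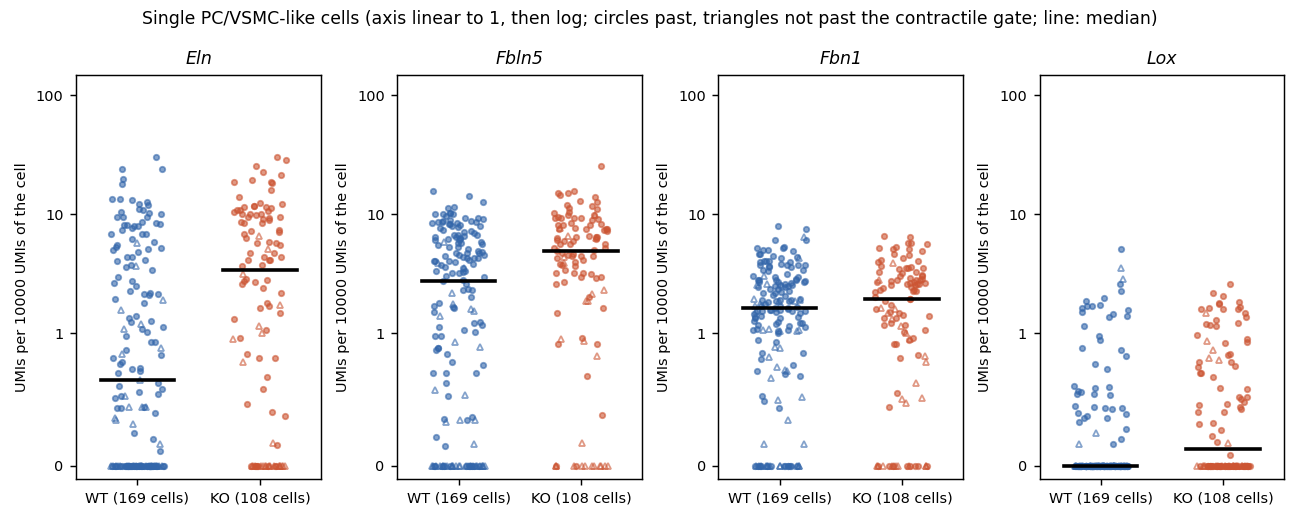
UMIs per 10000 UMIs of the cell (vertical axis, linear to 1 and logarithmic above) of Eln, Fbln5, Fbn1 and Lox in each PC/VSMC-like cell of the WT (169 cells) and KO library (108 cells), with lines at the medians. Circles are cells past the contractile gate and triangles those not past it; Eln has its median at 0.65 in WT and 3.4 in KO, and Fbn1 at 1.62 and 1.95.

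Markers of the class itself were close between the libraries. The 8 pericyte genes gate the class, so their closeness was partly set by the gate. It cannot show whether the same kind of cell was compared. The contractile genes were not part of that gate. None of the 7 contractile genes differed by 1.5-fold (sum 12862 and 12007 CPM, with Acta2 at 6883 and 5879 CPM and Myh11 at 208 and 259 CPM). Of the 8 pericyte genes, Ndufa4l2 was lower in KO (46.4 and 21.8 CPM) and the other 7 were within 1.5-fold (sum of all 8 at 906 and 853 CPM). A total of 127 WT and 83 KO cells of the class were also past the contractile gate, and in those Eln was at 389 and 743 CPM (log2 0.93, 0.82 to 1.04). In the same cells 3 genes were past 1.5-fold, namely Eln, Fbln2 (log2 0.89, 0.51 to 1.28) and Mfap4 (0.75, 0.59 to 0.90). Fbln5 (0.51, 0.40 to 0.63) and Lox (0.52, 0.14 to 0.90) were not. The share of all genes past 1.5-fold was not computed for these cells. In the remaining 42 and 25 cells, Eln was at 30 and 68.5 CPM (log2 1.19, 0.36 to 2.01), from 29 and 25 UMIs, and Fbln5 was at 34.1 and 159 CPM (log2 2.22, 1.58 to 2.88).

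Some markers of other cells differed within the class. The erythroid list was at 319 CPM (WT) and 127 CPM (KO) with 6 of 6 measured genes lower, Actc1 of the myogenic list was lower (list sum 717 and 189 CPM), Tcf21 was at 69.1 and 19.9 CPM, and the list with Barx1 was at 20.6 and 0.39 CPM with 2 of its 3 genes at 0 in KO. Of the Wnt2 list (Wnt2, Postn and Actg2), Wnt2 and Postn were lower in KO (list sum 1145 and 1041 CPM), as was Pdgfra of the general mesenchyme list, while Pax1 of the sclerotome list and Tubb3 of the neuron list were higher. The endothelial list was at 53.7 and 40.5 CPM, with 1 of 10 genes at 0 in WT and 5 in KO, and the macrophage list at 2.09 and 6.62 CPM with 6 and 2 of 10 genes at 0. The part of all these markers in the differences of Eln, Fbln5, Lox and Fbln2 was not tested. Median depth (16600 and 16284.5 UMIs) and the median mitochondrial share (6.46% and 6.53%) were close between the libraries in this class.

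Eln was also higher in KO in contractile-like cells, with 46.4 CPM in WT and 87.5 in KO (log2 0.91, 0.69 to 1.14). It was the only one of the 10 genes past 1.5-fold there, where 5.96% of 11025 genes were higher and 7.19% lower. Fbln5 in these cells was at 154 and 199 CPM (log2 0.37, 0.23 to 0.50), and Loxl1 at 91.4 and 67.3 CPM (log2 -0.44). Wnt2-positive cells (469 in WT, 120 in KO) and cells positive for Barx1, Tlx1 or Nkx2-5 (428 and 7) were set apart before this class. How many of them carried contractile genes was not counted, and the effect of this order on the values was not tested.

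Sclerotome-like cells, the precursors of vertebrae and ribs, had 2 of the 10 genes higher in KO and none lower, where 7.1% of 13515 genes were higher and 3.93% lower. Fbln2 was at 33.6 and 54.4 CPM (log2 0.70, 0.58 to 0.82) and Lox at 4.84 and 7.45 CPM (log2 0.62, 0.30 to 0.95). Eln in these cells was at 12.4 and 13.7 CPM, far below PC/VSMC-like cells. The Lox values were low, and the share of Lox in free RNA was itself higher in KO. Erythroid-like cells had 0.727 CPM of Lox in WT and 3.17 in KO, from 10 and 15 UMIs. Barcodes with at most 100 UMIs had 3.62 and 9.33 CPM of Lox. For Fbln2 those barcodes had 34.2 CPM in WT and 51.3 in KO, and erythroid-like cells had 6.47 and 4.43 CPM. The CPM of such barcodes give the make-up of free RNA and not its amount in a cell. The part of free RNA in the Lox and Fbln2 differences of sclerotome-like cells was not tested.

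**Figure D5:**
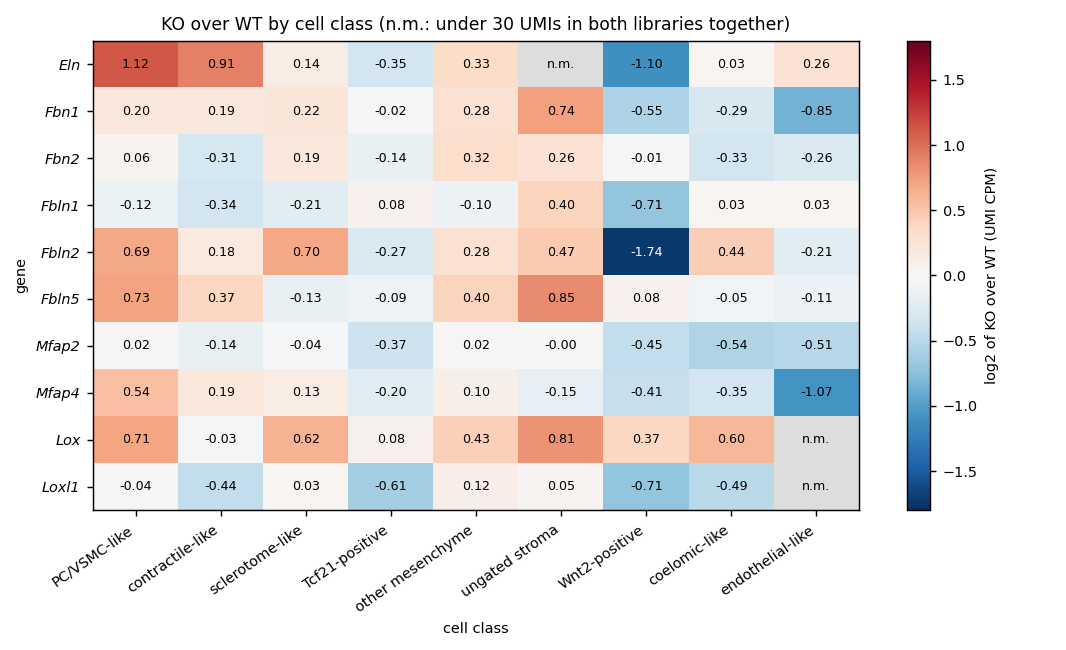
Log2 of KO over WT UMI CPM for each gene (vertical axis) in 9 cell classes (horizontal axis), red where KO was higher and blue where it was lower; n.m. marks genes under 30 UMIs in both libraries together. Eln is highest at 1.12 in PC/VSMC-like cells and lowest at -1.10 in Wnt2-positive cells, and Fbln2 is lowest at -1.74 in Wnt2-positive cells.

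Wnt2-positive cells went the other way, with 4 of the 10 genes lower in KO and none higher. The background in this class was large, with 14.5% of 11116 genes lower and 13.5% higher. Fbln2 was at 82.1 CPM in WT and 24.5 in KO (log2 -1.74, -2.17 to -1.35), and Eln at 28.7 and 13.4 CPM from 248 and 30 UMIs (log2 -1.10, -1.70 to -0.55). Fbln1 was at 291 and 178 CPM (log2 -0.71), and Loxl1 at 41 and 25 CPM (log2 -0.71). The 469 WT cells of this class were led by Lum, Dcn, Col1a1 and Postn besides Wnt2, and the 120 KO cells by Gata5, Pitx1 and Tbx4, so the same kind of cell was not compared with certainty.

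In Tcf21-positive cells, 1 gene was lower in KO and none higher, against 6.03% and 4.32% of 11828 genes. It was Loxl1, at 34.4 and 22.5 CPM (log2 -0.61). Endothelial-like cells had 2 lower genes of the 8 with at least 30 UMIs and none higher, against 7.03% and 3.99% of 10075 genes. They were Fbn1 at 32.6 and 18.1 CPM (log2 -0.85, -1.28 to -0.42) and Mfap4 at 23.9 and 11.4 CPM (log2 -1.07, -1.61 to -0.55). Fbn1 UMIs were in 34 of 111 WT and 31 of 100 KO cells. The tenth of cells with most Fbn1 held 72.5% and 67.9% of them, so its class values came largely from few cells. Thinned to 2000 UMIs, 3.6% of WT (0.99 to 8.97) and 5% of KO cells (1.64 to 11.3) had an Fbn1 UMI. These intervals overlap, so the shares do not resolve a difference in either direction. Both Mfap4 values lie at or below those of erythroid-like cells and are read as background.

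Of 26 other genes of elastic fibers, microfibrils and their processing, 24 had at least 100 stromal UMIs, and 1 of them was lower and 1 higher in KO by 1.5-fold, with a median log2 of 0.11. Adamtsl5, a microfibril-associated ADAMTS-like protein, was at 0.712 and 0.357 CPM (76 and 39 UMIs, log2 interval -1.59 to -0.42). Adamtsl2, another ADAMTS-like protein that binds fibrillin, was at 1.49 and 2.24 CPM (log2 0.59, 0.30 to 0.89). At these levels both rest on few UMIs. In PC/VSMC-like cells 11 of the 24 in WT and 12 in KO were at least 2-fold above the other stroma, as were 7.25% (WT) and 7.94% (KO) of the 13861 genes measured there. Among them was Ltbp1, a latent TGF-β binding protein, at 155 CPM against 53.1 CPM in WT and 229 CPM against 57.7 CPM in KO. Bgn, the proteoglycan biglycan, was at 259 against 64.1 CPM in WT and 332 against 73.6 CPM in KO.

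Across the 29 pairs of class and library with at least 50 cells, the genes most alike to each of the 10 were found by Pearson's r of log2(CPM + 10) over 12292 genes with at least 500 UMIs. Points of 1 library share their library, and depth differed between classes, so r is given as a description. The genes most like Eln were Hey2, Adarb1 and Igfbp7 (r of 0.94, 0.94 and 0.93), and those most like Fbln5 were Mfap5, Kcns3 and Myh11 (0.95, 0.93 and 0.93). Fbn1 was most like Loxl2, Marveld1 and Fn1 (0.95, 0.94 and 0.94). Lox was most like Gstt1, Abi3bp and Spon2 (0.93, 0.92 and 0.92). Mfap4 was most like Nfatc4, Clmp and Cdh11 (0.94, 0.94 and 0.93), and Fbln1 most like Tpst1, Mageh1 and Arhgef40 (0.94, 0.94 and 0.93). Fbln2 had the weakest match, with Fkbp9, Zadh2 and Glis2 (0.87, 0.85 and 0.85). For Loxl1, Tgfb3 and Palld followed AI838599 (0.95) at 0.93 and 0.92. Mfap2 was most like Tpst1, Fbn2 and Gpx8 (0.96, 0.95 and 0.95). Fbn2 was most like Rcn1 (0.97), followed by 2610008E11Rik (0.96) and Mfap2 (0.95).

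Among pairs of the 10 genes, Fbn2 and Mfap2 were most alike at 0.95, and Eln and Fbln5 followed at 0.92. The lowest values were those of Eln with Fbln1 at 0.27 and with Mfap4 at 0.35. Eln and Fbln5, which share PC/VSMC-like and contractile-like cells as their leading classes, were less alike to the broadly expressed Fbn2 and Mfap2, at 0.47 to 0.61.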

How the data were processed

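Whole AGM cells of 1 WT and 1 KO library were sequenced at the 3′ end of their RNA on the 10x Chromium platform. The UMI counts per gene and barcode were deposited by the authors unfiltered, as made with Cell Ranger 3.1.0 on mm10 (GRCm38), per the submitters' processing notes. They are whole numbers without normalization, and the deposited identifier and barcode lists carry no score or other value.

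Cells were barcodes with at least 2000 UMIs and under 10% mitochondrial UMIs, of 1438264 WT and 1411683 KO barcodes with a UMI; 954 and 992 were removed for mitochondrial share. Classes needed at least 3 distinct markers and a minimum share of UMIs (1000 per 10000 for erythroid, 10 for blood and endothelial, 20 for contractile, 5 for other lists, 2 for single genes). These minimums were set after seeing the data. No doublet caller was run. Cells that passed several of the gates outside the stroma (27 in WT, 12 in KO) were left out as an alternative. None of them was stromal, so this alternative could not change the values of stromal or PC/VSMC-like cells. UMIs were summed per class and library and given as CPM with exact Poisson intervals, and KO over WT with the exact conditional (Clopper-Pearson) interval. With 1 library per genotype there is no test and no p-value. A difference was counted at 1.5-fold, for genes with at least 100 UMIs in the stroma or 30 in a class. The ratio and interval were tested on simulated data. The named genes are the 10 genes, other elastic fiber genes at least 1.5-fold apart in the stroma, the 3 genes most alike to each of the 10, and Pdgfrb; Ltbp1, Bgn and the markers given beside results were named after their values were seen. The members and lists were chosen with earlier results of these data known. Gene positions come from GENCODE M21 and promoter windows from RefSeq (GRCm38.p6). Python 3.11.15, numpy 2.4.6, scipy 1.17.1 and pandas 2.3.3 were used, with TMM factors from edgeR 4.0.16 as an alternative scaling.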

Additional observations from a re-analysis of the deposited data

Results flagged for a closer look

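Eln and Fbln2 differed between KO and WT in opposite directions in different stromal classes. The log2 of KO over WT for Eln was 1.12 in PC/VSMC-like cells and 0.91 in contractile-like cells, and -1.10 in Wnt2-positive cells. For Fbln2 it was 0.69 in PC/VSMC-like cells and 0.70 in sclerotome-like cells, and -1.74 in Wnt2-positive cells. The counting intervals of the opposite values do not overlap, but with 1 library per genotype the difference between classes was not tested. Wnt2-positive cells of KO, 120 against 469 in WT, had other leading genes than those of WT, and the part of this in the lower KO values was not tested.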

How the results depend on the processing

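No paired analysis was possible because each genotype is 1 library, and leaving out a replicate is likewise not possible. No alternative made any of the 10 genes 1.5-fold lower in KO stromal or PC/VSMC-like cells. With at most 5% mitochondrial UMIs, 2 genes (Eln at 0.62 and Fbln5 at 0.67) became 1.5-fold higher in the stroma and the median log2 moved from 0.10 to 0.14, from 2499 of 6479 WT and 2256 of 6866 KO cells. This filter left only 16 WT and 12 KO PC/VSMC-like cells. With the same mix of classes, 1 gene (Eln) became higher and the median was 0.16. Thinned to 2000 UMIs the median was 0.02, and without Pdgfrb-positive KO cells it was -0.06. The count of 4 genes higher in PC/VSMC-like cells became 1 at 2-fold and 2 when thinned (Eln and Fbln2). It was 3 with stricter gates (Eln, Lox and Mfap4) and 3 in cells past the contractile gate (Eln, Fbln2 and Mfap4). Without Pdgfrb-positive KO cells it was 5, and at 5% mitochondrial UMIs it was 6. The share of all genes past the fold was not computed under any alternative, in this class or in the stroma. These counts therefore have no background to be set against. Eln in PC/VSMC-like cells stayed past 1.5-fold in all 15 alternatives, with a log2 of 0.61 to 1.76. Leaving out cells that passed several gates outside the stroma could not change it, since none of them was PC/VSMC-like. In this class Fbln5 ranged from 0.43 to 2.22, Lox from 0.19 to 1.64 and Fbln2 from -0.01 to 1.05. Fbln2 was at -0.01 in the cells not past the contractile gate. The alternatives for PC/VSMC-like cells and for single genes, the split by that gate, and leaving out shared barcodes, the Wnt2-positive and Barx1, Tlx1 or Nkx2-5-positive cells, or the PC/VSMC-like cells of the WT gates were chosen after seeing the data. DP cells were highest for 8 or 9 genes in every alternative. The cause of these shifts was not tested. Lox and Fbln2 in PC/VSMC-like cells rest on under 160 UMIs per library, which limits their precision.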
